A study of Mus musculus with 16 samples.

Results

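The 2 reporter alleles of Foxp3 were compared within regulatory T cells (Treg), the CD4+ T cells that restrain immune responses. In the fusion allele, labelled Foxp3-GFP, green fluorescent protein is joined to the Foxp3 protein at its amino-terminal end. In the ires allele, labelled Foxp3-IRES-GFP, the same transcript yields GFP and an unaltered Foxp3 as separate proteins. The 8 Treg arrays of the study were taken by their labels, out of 16 arrays in all: 4 of fusion Treg and 4 of ires Treg, each 4 made up of 2 arrays from B6 mice and 2 from NOD mice. NOD is an inbred strain that develops autoimmune diabetes, and B6 is a strain that does not. The other 8 arrays hold conventional CD4+ T cells (Tconv) of the same 4 lines and were used only for comparison. All mice were males 6 weeks old. Splenic Treg were double-sorted on a MoFlo as CD3+, CD4+ and GFP+ cells, and Tconv as GFP- cells, so every group carried a GFP reporter in Foxp3, and the allele under study also defined the gate. The labels do not say whether the 2 arrays of a group came from separate mice, so the p-values measure the spread between arrays, which may be technical.

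Foxp3 is the transcription factor that sets Treg identity. It acts in complexes with other factors, and the amino-terminal part of the protein is a region through which several partners bind. In the spleen, Treg include resting cells, which resemble naive T cells, and activated effector Treg, which home to tissues and make more of the suppressive molecules. The repressor Blimp-1, encoded by Prdm1, marks effector Treg, and IRF4 and BATF are known to act upstream of it. RNA from sorted cells cannot tell a larger share of effector cells from more RNA per cell, and this holds for every gene below.

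The arrays bore out the labelled cell type. Foxp3 stood between 11.37 and 12.16 (log2 intensity) on the 8 Treg arrays, against 7.01 to 8.18 on the 8 Tconv arrays, and Il2ra, the high-affinity chain of the IL-2 receptor, between 10.78 and 11.37, against 5.27 to 6.94. Cd3e and Cd4, which define the gate, were above 11.0 on all 16 arrays. A value was counted as above background past log2 6.06, the 40th percentile of all gene values, and 12798 genes passed that level on at least 2 of the 16 arrays. The B cell genes Ms4a1, Cd79a and Pax5, the NK cell genes Klrd1 and Ncr1 and the myeloid genes Csf1r and Itgax were below it on all 8 Treg arrays. Other markers were above it on all 8, among them Cd79b (7.10 to 7.74), the myeloid genes Cd68, Ctss and Cybb, the class II genes Cd74 and H2-Eb1, and Cd8b1, Nkg7 and Eomes. Of the 13 B lineage markers 1 was above it on all 8 Treg arrays and 9 on none; the counts were 3 and 7 of 14 for myeloid cells, 4 and 4 of 12 for dendritic cells and class II genes, 5 and 7 of 13 for cytotoxic and gamma-delta lymphocytes, and 4 and 3 of 8 for red cells and platelets. Of the tested markers of dendritic cells, other myeloid cells, B lineage cells, red cells and platelets, 0 were called. Among markers of cytotoxic and gamma-delta lymphocytes 1 of 9 tested was called higher in fusion, where 0.43% of all genes were. It was the chemokine gene Ccl5, which CD4+ T cells also make. The summed intensity of that list ran from 1308 to 2079 on fusion arrays and from 1212 to 1581 on ires arrays, and its part in the results was not tested. In Treg of both alleles Gzma, Gzmk and Xcl1 of that list were below background on all arrays. The summed intensity of dendritic cell and MHC class II genes ran from 883 to 1336 on fusion arrays and from 850 to 998 on ires arrays.

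The allele's own gene comes first. Foxp3 read 11.37 and 11.59 on the B6 fusion arrays and 11.47 and 11.52 on the NOD fusion arrays, against 11.79 and 11.77 on the B6 ires arrays and 11.94 and 12.16 on the NOD ires arrays. The groups did not overlap, with fusion below ires in both backgrounds, but the difference of -0.43 ± 0.10 (log2, SE) missed the threshold (adjusted p = 0.0665, limma over all genes tested). It passed without B6 fusion Treg replicate 2 (adjusted p = 0.0392), and with 1 mean per Treg group (0.0342), array weights (0.00445), the stricter filter on dim genes (0.0472) or trend and robust variances (0.0126). Foxp3 was not called in the other planned settings, nor without any other Treg array. Its difference was -0.30 in B6 (adjusted p = 0.506) and -0.56 in NOD (adjusted p = 0.196, limma). The flanking gene Ccdc22, part of a complex that recycles membrane proteins from endosomes, lay the other way. It read 8.29 and 8.55 in B6 fusion and 8.71 and 8.83 in NOD fusion, against 7.88 and 8.02 in B6 ires and 7.51 and 7.50 in NOD ires, 0.87 ± 0.13 higher in fusion (adjusted p = 0.00391). The next gene measured on that side, Cacna1f, was below background in Treg (5.20 to 5.61) and was not tested. The next gene tested there, Syp, differed by -0.48 ± 0.12 and was not called (adjusted p = 0.114, limma). Syp was called without NOD ires Treg replicate 1 (0.0192), and with 1 mean per Treg group (0.0389), all 16 arrays (0.0498) or array weights (0.0293). In B6 Treg alone it was called lower (-0.70, adjusted p = 0.0428, limma). On the other side the long noncoding RNA Flicr, which is known to dampen Foxp3 expression, differed by -0.61 ± 0.20 (adjusted p = 0.314, and 0.00226 without NOD ires Treg replicate 1). Whether probes of these genes read the modified allele equally was not tested.

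Across both backgrounds the genes that rose in fusion Treg included 11 of 35 effector Treg genes tested and 5 of 33 cell cycle genes, and those that fell included 1 effector Treg gene, Ebi3. Of the 12798 genes, 67 were called at an adjusted p under 0.05 (0.524%), 55 of them higher in fusion Treg (0.43%) and 12 lower (0.0938%). Of all genes tested 48.9% had a positive difference. All 67 had the same sign in B6 and in NOD. The genes that rose did so by 0.42 to 1.17 on the log2 scale, 7 of them by at least 2-fold as fitted, and those that fell did so by 0.45 to 0.73. The 4 fusion arrays lay above all 4 ires arrays for 29 of the 55 genes, where 1.41% of all genes tested did so, and below them for 6 of the 12, where 0.742% of all genes did so (2.15% in either direction). These shares come from the values that chose the genes. Of the 55 genes, 45 were above background on all 8 Treg arrays, while Il10, Cysltr2, Bub1 and 1 predicted gene were above it in Treg on fusion arrays only, so that they passed through the group where they are high. Of the 12 lower genes, 10 were above background on all 8.

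Leaving out B6 fusion replicate 1 gave 27 called genes, and B6 ires replicates 1 and 2 gave 28 and 29. The count lay between 45 and 78 without each of the other 5 Treg arrays. The call held whichever array was left out for 18 genes, 17 higher and 1 lower in fusion: Il10, Atp6v0d2, Neb, Ccl5, Prdm1, Nedd4, Nrn1, Ccdc22, Tigit, Rapgef5, Icos, Bub1, Ahr, Top2a, Cxcr3, Ncapg, Adh1 and 1 predicted gene. Ncapg was named after its values were seen.

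Of the transcription factors of effector Treg, Prdm1, Ahr, Maf and Nfil3 rose. Prdm1 had values of 8.83 and 8.86 in B6 fusion and 8.58 and 8.45 in NOD fusion, against 7.89 and 7.41 in B6 ires and 7.80 and 7.59 in NOD ires. Every fusion array stood above every ires array, by 1.01 ± 0.12 on average, or 2.01-fold (adjusted p = 0.000618). Ahr, the receptor for dietary and microbial aromatic ligands, had 8.72, 8.96, 8.39 and 8.59 in fusion (B6 first, then NOD), against 7.94 to 8.06 on the 4 ires arrays, a difference of 0.68 ± 0.10 (adjusted p = 0.00288). The fusion arrays were all higher, and the ires arrays were close together. Maf, which drives Il10 in several T cell types, differed by 0.59 ± 0.11 (adjusted p = 0.0173), and Nfil3 by 0.62 ± 0.11 (adjusted p = 0.0137). Both were named after their values were seen. Maf lost the call without any of the 4 B6 Treg arrays (highest adjusted p = 0.0917), and Nfil3 without B6 ires Treg replicate 1 (adjusted p = 0.0749). Irf4 (0.22 ± 0.13, adjusted p = 0.86) and Batf (0.40 ± 0.10, adjusted p = 0.114) did not pass the test, and Batf did so with trend and robust variances (adjusted p = 0.0436).

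The promoters of Prdm1, Nedd4, Ccr4 and Rapgef5 are shown because these are 4 of the 5 genes whose allele difference was also called between Treg and Tconv, the fifth being Ahr. Each sequence holds the 250 bases before the first start listed for the gene in RefSeq (GRCm38.p6), on the gene's strand: Prdm1 chr10:44458749-44458998 (minus), Nedd4 chr9:72662081-72662330 (plus), Ccr4 chr9:114496545-114496794 (minus) and Rapgef5 chr12:117516276-117516525 (plus). Capitals mark matches on either strand to the forkhead motif GTAAACA, the AP-1 motif TGANTCA, paired IRF half-sites (GAAA, any 2 bases, GAAA), a short IRF and AP-1 composite (GAAA joined to TGANTCA), a long one (TTTC, any 4 bases, TGANTCA), or the hypoxia response core ACGTG. Both composites contain the AP-1 motif.
Prdm1: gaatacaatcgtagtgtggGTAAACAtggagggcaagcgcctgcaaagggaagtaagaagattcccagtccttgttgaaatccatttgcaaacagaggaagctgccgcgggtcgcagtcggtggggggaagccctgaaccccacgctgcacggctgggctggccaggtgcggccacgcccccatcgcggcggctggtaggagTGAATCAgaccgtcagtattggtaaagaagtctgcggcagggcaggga
Nedd4: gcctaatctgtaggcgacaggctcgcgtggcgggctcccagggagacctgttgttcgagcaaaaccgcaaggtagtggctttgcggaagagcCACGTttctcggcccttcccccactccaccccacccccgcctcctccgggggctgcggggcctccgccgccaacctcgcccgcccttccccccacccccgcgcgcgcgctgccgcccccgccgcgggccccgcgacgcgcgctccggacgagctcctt
Ccr4: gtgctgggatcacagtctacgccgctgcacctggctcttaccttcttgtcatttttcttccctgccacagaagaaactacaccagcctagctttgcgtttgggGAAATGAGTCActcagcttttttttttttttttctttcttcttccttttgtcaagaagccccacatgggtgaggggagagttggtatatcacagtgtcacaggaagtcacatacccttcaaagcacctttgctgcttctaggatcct
Rapgef5: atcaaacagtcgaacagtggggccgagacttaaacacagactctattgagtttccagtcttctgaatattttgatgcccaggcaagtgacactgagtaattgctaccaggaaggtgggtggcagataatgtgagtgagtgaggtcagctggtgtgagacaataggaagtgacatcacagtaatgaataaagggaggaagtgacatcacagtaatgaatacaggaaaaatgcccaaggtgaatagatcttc
The Prdm1 window holds a forkhead and an AP-1 match, that of Ccr4 the short composite with the AP-1 match inside it, that of Nedd4 a hypoxia core, and that of Rapgef5 none. Of the 55 genes higher in fusion 37 had a sequence in the table, of the 12 lower genes 10, and of all genes tested 10267. The motif shares were not tested. The forkhead motif was in 8.11% of the 37 windows and 2.29% of the 10267, which is 3 genes and 235. Paired IRF half-sites were in 10.8% and 2.57% (4 genes and 264), and AP-1 in 8.11% and 4.46% (3 genes and 458). The short composite was in 2.70% of the 37 and 0.0779% of all, which is 1 gene and 8 genes. The long composite was in 0 of the 37, and the hypoxia core in 24.3% and 21.2%. The 10 lower genes held only the hypoxia core, in 20.0%.

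Suppressive and inhibitory molecules of Treg were the next group. Of 18 tested, 5 rose (Fgl2, Il10, Tigit, Lag3 and Ctla4) and 1 fell (Ebi3), where 0.43% and 0.0938% of all genes did. The median was 0.24 over the 18, against -0.0023 over all genes tested. Il10, the suppressive cytokine, had 7.12, 6.62, 5.46 and 5.76 in fusion (B6 first), against 5.62, 5.15, 4.98 and 4.86 in ires, and was called (adjusted p = 0.00292). All 4 ires arrays and both NOD fusion arrays were below the background level, so only a bound can be given. In B6 fusion Treg Il10 was at least 1.75-fold higher than in B6 ires Treg, from the fusion mean and that level, and in NOD no size is given. Fgl2, a secreted protein that restrains antigen-presenting cells, had 9.32, 9.16, 7.89 and 8.07 in fusion, against 8.27, 7.23, 7.08 and 7.21 in ires. The groups overlapped through B6 ires replicate 1, and the difference of 1.17 ± 0.18 (adjusted p = 0.00384) was the largest called. It lost the call without B6 fusion Treg replicate 2 (adjusted p = 0.0547) and with trend and robust variances (adjusted p = 0.194).

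Tigit, an inhibitory receptor for ligands on dendritic cells, had 11.17, 11.15, 10.55 and 10.09 in fusion, against 9.97, 10.19, 9.74 and 9.62 in ires, 0.86 ± 0.12 higher (adjusted p = 0.00185). Only NOD fusion replicate 2 fell among the ires values. Lag3, which binds MHC class II, differed by 0.52 ± 0.10 (adjusted p = 0.0284), and Ctla4, which strips costimulatory ligands from other cells, by 0.49 ± 0.10 (adjusted p = 0.0354). Ctla4 read 11.43 to 12.37 in fusion, against 11.05 to 11.66 in ires, and fusion was above ires within each background although the pooled groups overlapped. Without the arrays of B6 fusion replicate 1, B6 ires replicate 1 or NOD ires replicate 1 neither was called, Lag3 also not without B6 fusion replicate 2 or NOD fusion replicate 1, and Ctla4 not without NOD fusion replicate 2 or B6 ires replicate 2. The highest adjusted p were 0.139 for Lag3 and 0.175 for Ctla4, and Ctla4 had 0.319 with all 16 arrays in the model. Ebi3, a subunit of the cytokines IL-27 and IL-35, fell by 0.45 ± 0.09 (adjusted p = 0.0300). It read 7.52, 7.61, 6.95 and 7.12 in fusion, against 7.96, 7.96, 7.54 and 7.52 in ires, lower in fusion within each background. Of the 8 fits without 1 Treg array, that without B6 fusion replicate 2 kept the call (highest adjusted p = 0.126 among the other 7). The ectoenzyme gene Entpd1 (0.39, adjusted p = 0.0988) and granzyme B, Gzmb (0.46, adjusted p = 0.868), were not called. The count of 5 higher genes in this list was 3 without either B6 fusion array, B6 ires replicate 1 or NOD ires replicate 1.

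**Figure D1:**
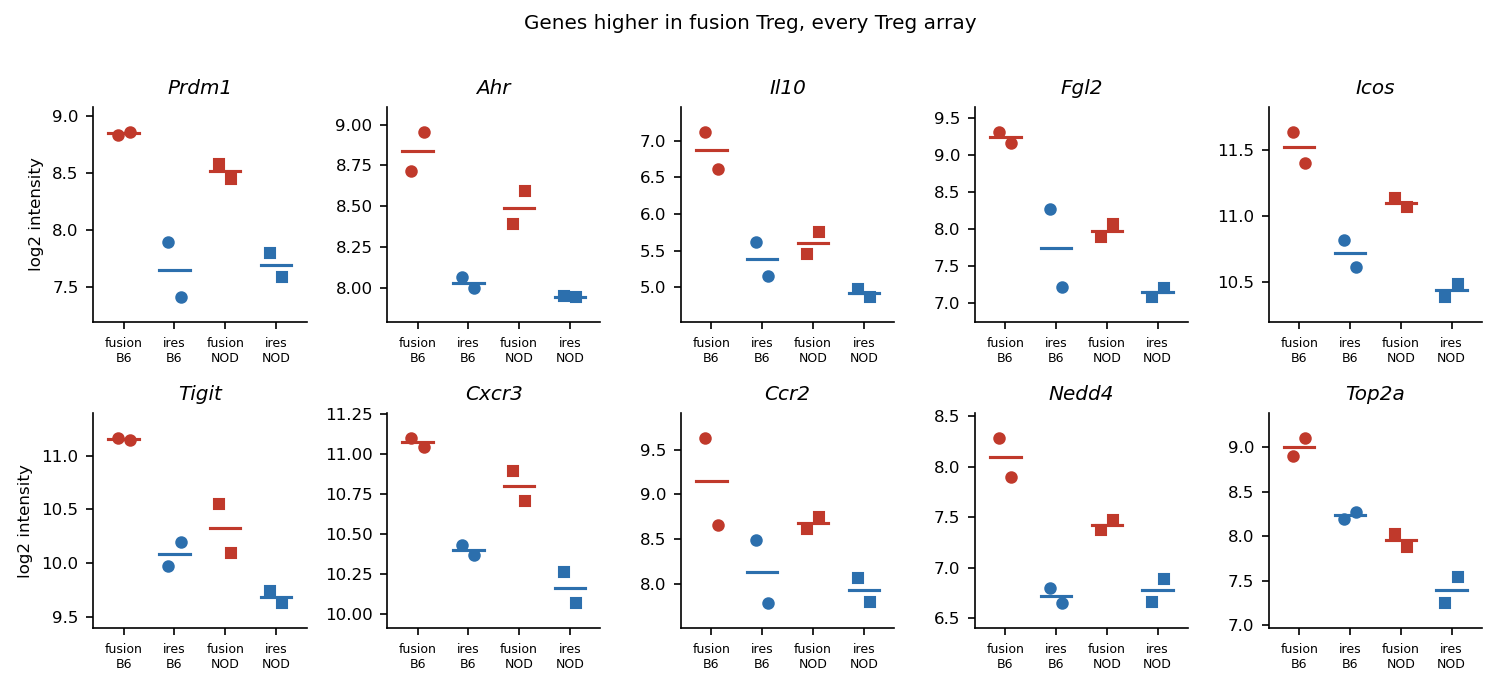
Log2 intensity (y axis) of 10 genes higher in fusion Treg on each of the 8 Treg arrays; red is fusion, blue is ires, circles are B6, squares are NOD and bars are means of 2 arrays. For Prdm1, Ahr, Icos, Cxcr3, Ccr2 and Nedd4 all 4 red points lie above all 4 blue points, while for Fgl2 and Top2a the separation is within each background. The Il10 values of ires and of NOD fusion are below the background level of 6.06.

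A costimulatory receptor and several homing receptors rose as well. Icos, the costimulatory receptor that sustains effector Treg, had 11.64, 11.40, 11.13 and 11.07 in fusion, against 10.82, 10.61, 10.39 and 10.49 in ires, without overlap and with a difference of 0.73 ± 0.10 (adjusted p = 0.00144). Of 17 chemokine receptors and related homing receptors tested, 3 rose and 0 fell, where 0.43% and 0.0938% of all genes did. Cxcr3, which guides cells to type 1 inflammation, had 11.10, 11.05, 10.89 and 10.71 in fusion, against 10.43, 10.37, 10.26 and 10.06 in ires. All fusion values were the higher ones, by 0.66 ± 0.09 (adjusted p = 0.002), and with all 16 arrays in the model its adjusted p was 0.18. Ccr2, a receptor for inflammatory monocyte chemokines, differed by 0.88 ± 0.18 (adjusted p = 0.0312) and Ccr4, a receptor of skin-homing and activated Treg, by 0.49 ± 0.10 (adjusted p = 0.0406). Ccr2 lost the call without B6 fusion Treg replicate 1 or B6 ires Treg replicate 2 (0.111 and 0.121), and had adjusted p of 0.121 after quantile normalization and 0.417 with trend and robust variances. Ccr4 lost it without each Treg array but NOD fusion replicate 2 and NOD ires replicate 1 (highest 0.198). Ccr7, which holds cells in lymphoid tissue, differed by -0.36 (adjusted p = 0.265). Itgae, the integrin chain CD103 that binds epithelial cadherin, was the 1 called gene of 20 for integrins and adhesion, where 0.43% of all genes rose. It read 9.87, 9.92, 9.69 and 9.37 in fusion, against 9.40, 8.61, 9.12 and 8.89 in ires (0.71 ± 0.14, adjusted p = 0.0354). A single ires array, B6 replicate 1, reached the lowest fusion value, and the call was lost without either B6 fusion array or B6 ires Treg replicate 2 (highest adjusted p = 0.168), as well as after quantile normalization (0.102) and with trend and robust variances (0.121).

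Of all 35 effector Treg genes tested, 11 rose and 1 fell, where 0.43% and 0.0938% of all genes did, and 28 had a positive difference, as had 48.9% of all genes. The 11 were Prdm1, Ahr, Maf, Nfil3, Icos, Il10, Tigit, Lag3, Fgl2, Cxcr3 and Ccr2. Il10, Tigit, Lag3, Fgl2 and the fallen Ebi3 were also counted above as suppressive molecules, and Cxcr3 and Ccr2 as chemokine receptors. The list's median difference was 0.34 over both backgrounds, 0.46 in B6 and 0.19 in NOD, and -0.05 in Tconv. Without each Treg array in turn the count of higher genes was 8 to 12 and the median 0.21 (without B6 ires replicate 2) to 0.41. The list was drawn up with results of these arrays known, so its direction is not independent evidence. The 25 core Treg genes had a median of 0.07 (0.0034 to 0.126 without each Treg array in turn), with 2 called higher, Ctla4 and Itgae, where 0.43% of all genes were (0 to 2 without each array). The lists were not tested against each other. Among them Il2ra differed by 0.13 ± 0.11 (adjusted p = 0.99) and Ikzf2, the Helios gene, by 0.28 ± 0.09 (adjusted p = 0.271).

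**Figure D2:**
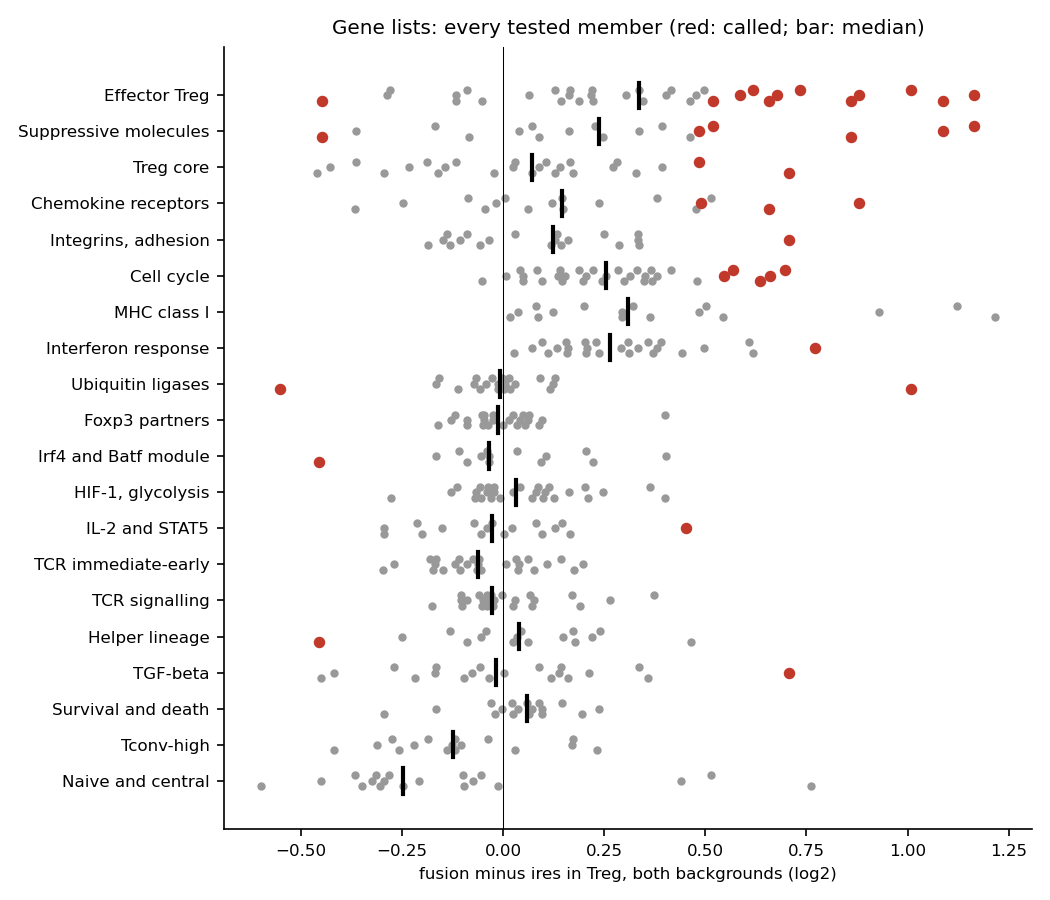
Difference between fusion and ires Treg over both backgrounds (x axis, log2) for every tested member of 20 gene lists (y axis); red points are called genes and black bars are list medians. The effector Treg list holds 11 called genes to the right of 0, and the naive and central list has 16 of 19 members to the left with none called.

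A minority of cell cycle genes rose in fusion Treg. Of 33 tested, 5 rose and 0 fell, where 0.43% of all genes rose. A positive difference was found for 32, as for 48.9% of all genes, and the median was 0.26 (0.32 in B6, 0.19 in NOD, -0.11 in Tconv). Top2a, the topoisomerase of dividing cells, had 8.89 and 9.10 in B6 fusion and 8.03 and 7.88 in NOD fusion, against 8.20 and 8.27 in B6 ires and 7.24 and 7.54 in NOD ires. Fusion was higher within each background while B6 exceeded NOD throughout, and the difference was 0.66 ± 0.10 (adjusted p = 0.00388). With all 16 arrays in the model the adjusted p was 0.0603, and 0.0501 with the mean of its probe sets. The spindle checkpoint kinase Bub1, below background on the ires and NOD fusion arrays, differed by 0.70 ± 0.10 as fitted (adjusted p = 0.00288), the proliferation marker Mki67 by 0.63 ± 0.11 (adjusted p = 0.00807), the motor protein Kif11 by 0.57 ± 0.12 (adjusted p = 0.0474) and the ribonucleotide reductase subunit Rrm2 by 0.55 ± 0.11 (adjusted p = 0.0261). Of these Bub1 was called whichever array was left out, but in Treg it passed background only through the group where it is high. Mki67 lost the call without B6 ires Treg replicate 2 (0.0506) and Kif11 without any B6 Treg array (highest 0.234). Rrm2 lost it without any of 3 B6 arrays, ires replicate 2 excepted, or NOD ires replicate 1 (highest 0.125). With all 16 arrays in the model the adjusted p were 0.0991 for Mki67, 0.0584 for Kif11 and 0.103 for Rrm2. The count of 5 was 3 without any 1 of the 4 B6 Treg arrays and 1 with all 16 arrays in the model.

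Other genes that rose belong to none of these groups. Nedd4, a ubiquitin ligase that tags membrane and signalling proteins, had 8.29 and 7.90 in B6 fusion and 7.38 and 7.47 in NOD fusion, against 6.80 and 6.65 in B6 ires and 6.67 and 6.89 in NOD ires. All 4 fusion arrays lay above the ires arrays, by 1.01 ± 0.14 (adjusted p = 0.00177). In a list of 22 ubiquitin ligases and adaptors, 1 rose (Nedd4) and 1 fell (Neurl3), where 0.43% and 0.0938% of all genes did. Neb, known for the giant filament protein nebulin of muscle, had 8.83, 8.48, 8.36 and 8.40 in fusion, against 7.84, 7.31, 7.37 and 7.46 in ires, without overlap (1.02 ± 0.12, adjusted p = 0.000618). Ccl5, a chemokine for T cells and monocytes, had 9.56, 9.85, 8.60 and 8.55, against 8.36, 8.50, 7.64 and 7.97, also without overlap (1.02 ± 0.12, adjusted p = 0.000618). With all 16 arrays in the model, Ccl5 had an adjusted p of 0.0991.

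Rapgef5, an exchange factor for small GTPases of the Ras family, differed as fitted by 0.74 in B6 and 0.74 in NOD, from levels about 1 log2 unit apart. It read 6.80, 6.78, 7.88 and 7.68 in fusion, against 6.07, 6.03, 7.11 and 6.97 in ires (0.74 ± 0.09, adjusted p = 0.000753). Its B6 ires values lay at the background level of 6.06, so the size in B6 is uncertain. The proton pump subunit gene Atp6v0d2 differed by 1.04 ± 0.14 (adjusted p = 0.00177), and Nrn1, the membrane-anchored protein neuritin, by 0.95 ± 0.15 (adjusted p = 0.00388, and 0.0573 with all 16 arrays in the model). The amino acid transporter Slc43a1 differed by 0.90 ± 0.15 (adjusted p = 0.00996). The noncoding RNA Morrbid, which represses the death gene Bcl2l11 in short-lived myeloid cells, differed by 0.83 ± 0.13 (adjusted p = 0.00658), and the leukotriene receptor Cysltr2, below background on all ires arrays, by 0.77 ± 0.15 as fitted (adjusted p = 0.0237). Slc43a1 lost the call without either B6 fusion array (highest 0.0792), Morrbid without B6 fusion Treg replicate 2 (0.0638) and Cysltr2 without any B6 Treg array (highest 0.134) or after quantile normalization (0.0979). Gimap7, a small GTPase of lymphocytes, differed by 0.45 ± 0.09 (adjusted p = 0.0302). It was the 1 called gene of 17 in the list of IL-2 and STAT5 genes, where 0.43% of all genes rose. Of the 8 fits without 1 Treg array, that without NOD fusion replicate 1 kept the call (highest 0.124 among the rest), and with all 16 arrays in the model the adjusted p was 0.0573.

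Interferon response genes were above 0 in all 26 cases tested, where 48.9% of all genes were, with a median of 0.27. Where 0.43% of all genes were called higher, 1 of the 26 was, the immunity-related GTPase Iigp1 (0.77 ± 0.13, adjusted p = 0.00834). It read 9.56, 8.88, 9.02 and 9.28 in fusion, against 8.24, 8.52, 8.39 and 8.50 in ires, and the adjusted p was 0.0541 without B6 ires Treg replicate 1 and 0.0638 with all 16 arrays in the model. Leaving out B6 fusion replicate 1 gave a list median of 0.12, and leaving out replicate 2 gave 0.46. In Tconv it was 0.33, and Iigp1 differed by 0.47 there. The 16 class I presentation genes were likewise all above 0 (median 0.31; 0.49 in NOD, 0.18 in B6 and 0.26 in Tconv) with 0 called by limma, and 6 called with 1 mean per Treg group in the model.

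Of the genes that fell, Adh1, an alcohol and retinol dehydrogenase, changed most as fitted. It had 5.81 and 6.12 in B6 fusion and 6.99 and 7.38 in NOD fusion, against 6.50 and 6.44 in B6 ires and 8.17 and 8.10 in NOD ires, and fell by 0.73 ± 0.12 (adjusted p = 0.00658). Fusion was lower within each background, and NOD higher than B6 for either allele. The B6 fusion values of Adh1 lay close to the background level of 6.06, so the size of the fall in B6 is uncertain. Neurl3, a ubiquitin ligase, had 7.89, 8.12, 7.84 and 7.91 in fusion, against 8.61, 8.55, 8.47 and 8.34 in ires, without overlap (-0.55 ± 0.09, adjusted p = 0.00807, and 0.0633 without B6 fusion Treg replicate 1). Abcg2, an efflux pump, read 6.54, 6.64, 6.13 and 6.53, against 7.01, 7.07, 7.11 and 6.86, also without overlap (-0.55 ± 0.11, adjusted p = 0.0266). Rgs2, which shortens signals from G protein-coupled receptors, likewise did not overlap, and fell by 0.52 ± 0.11 (adjusted p = 0.0426).

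Bcl6, the repressor that opposes Blimp-1 in T and B cells, fell by 0.45 ± 0.10 (adjusted p = 0.0482). It had 7.64 to 8.23 in fusion, against 8.17 to 8.74 in ires. Fusion was lower within each background, and the NOD fusion arrays lay close to the B6 ires arrays. The remaining named genes were the adaptor of LIM domain complexes Lmo4 (-0.58 ± 0.12), the sialyltransferase St8sia6 (-0.59 ± 0.13), the membrane protein Susd2 (-0.57 ± 0.11), the actin-linked Marcksl1 (-0.54 ± 0.12) and the ubiquitin ligase Rnf144a (-0.49 ± 0.10), with adjusted p of 0.0274 to 0.0483. Adh1 was called without any 1 Treg array. Abcg2, Rgs2, Bcl6, Lmo4, St8sia6, Susd2, Marcksl1 and Rnf144a each lost the call without 5 to 7 of the 8, the B6 fusion replicate 1 and both B6 ires arrays among them for each, with highest adjusted p of 0.109 (Abcg2) to 0.237 (Bcl6). After median centring of each array Ebi3, Bcl6, Rgs2, St8sia6 and Marcksl1 were not called (0.0564 to 0.0916).

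**Figure D3:**
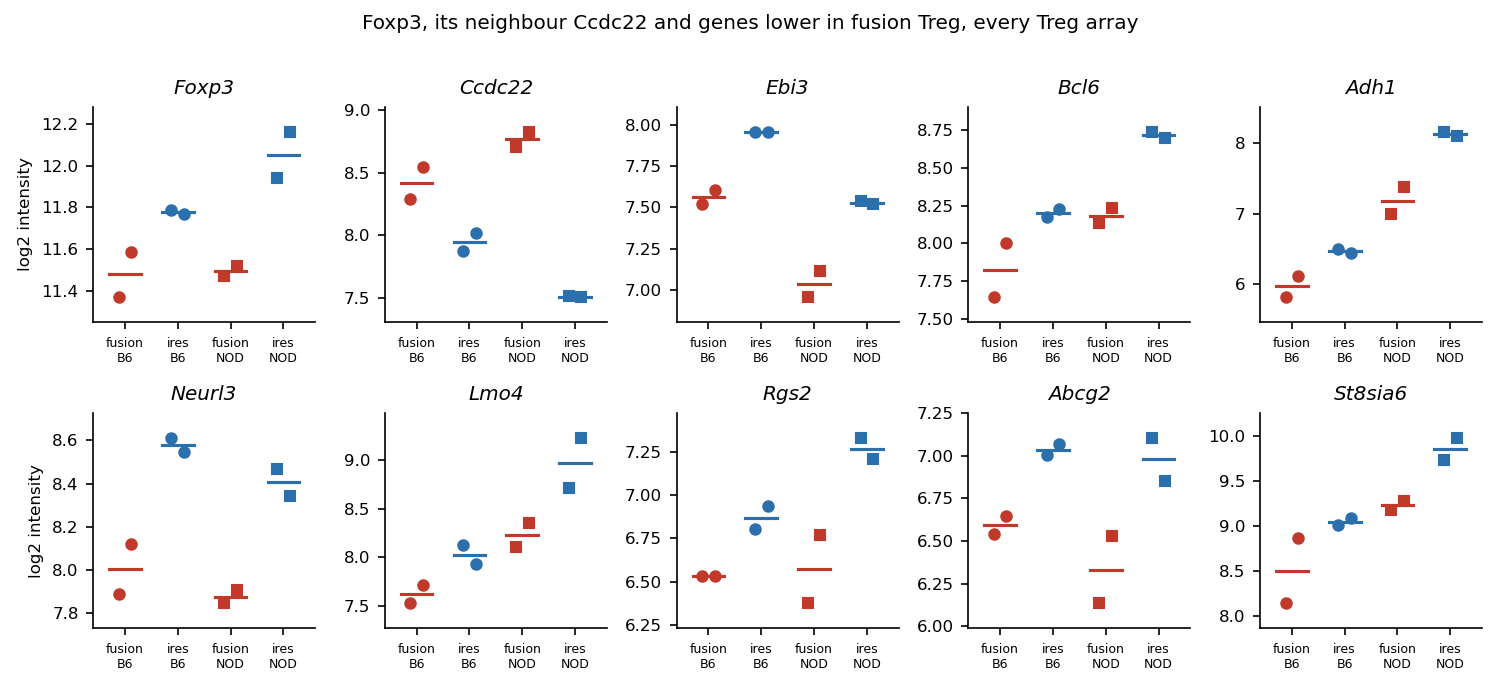
Log2 intensity (y axis) on each Treg array of Foxp3, its neighbour Ccdc22 and 8 genes lower in fusion Treg; red is fusion, blue is ires, circles are B6, squares are NOD and bars are means of 2 arrays. Foxp3, Neurl3, Rgs2 and Abcg2 have all red points below all blue points, Ccdc22 has them above, and Adh1 separates within each background.

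Several other pathways were listed because Foxp3 and its partners act in them. Of 24 genes for Foxp3 partners, 0 were called (median -0.01), and of 28 genes for HIF-1 and glycolysis 0 (median 0.03). Hif1a had 10.91, 10.88, 10.82 and 10.82 in fusion, against 10.20, 10.50, 10.53 and 10.60 in ires. Its groups did not overlap, yet the difference of 0.40 ± 0.10 was not called (adjusted p = 0.102, limma). Hif1a was called with trend and robust variances (0.0262) and with array weights (0.0164). Of 14 genes for IRF and BATF factors (median -0.04), Bcl6 alone was called, as lower, where 0.0938% of all genes were. None of the 26 immediate-early genes (median -0.06), 24 genes of T cell receptor signalling (-0.03) or 17 of survival and death (0.06) was called. Of 19 naive and central T cell genes 16 were below 0, where 51.1% of all genes were, and 0 were called. The median was -0.25, and -0.12 without B6 fusion Treg replicate 1. Actn1, which links actin to the membrane, had -0.60 (adjusted p = 0.0679) and Id3 -0.45 (adjusted p = 0.175). The 3 members above 0 were Cd55 (0.76, adjusted p = 0.45), Ccr9 (0.51, adjusted p = 0.344) and Il7r (0.44, adjusted p = 0.0665). With 1 mean per Treg group in the model 3 members of that list were called higher and 2 lower.

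The same alleles were compared in Tconv, which express little Foxp3. There limma called 0 genes between fusion and ires, and 421 of 12798 had an unadjusted p under 0.05. A model with all 16 arrays called 3. The first fit holds 1 allele difference for both backgrounds, so it could miss a gene that differed in 1 background alone. The potassium channel gene Kcnma1 was at least 22.4-fold higher in NOD fusion than in NOD ires Tconv, from the fusion mean and the background level. The cathepsin E gene Ctse was 3.41 higher (log2) in B6 fusion than in B6 ires Tconv. The 55 genes higher in fusion Treg were divided evenly in Tconv, 28 above 0 and 27 below, with a median difference of 0.01. Of the 12 lower genes, 2 were above 0 and 10 below in Tconv, with a median of -0.05. Of the 55, 50 were higher in ires Treg than in ires Tconv, where 49.3% of all genes were, and all 55 were higher in fusion Treg than in fusion Tconv, comparisons that share the Treg arrays with the one that chose the genes. Prdm1, for instance, read 6.18 to 6.77 on the 4 fusion Tconv arrays and 6.19 to 6.75 on the 4 ires Tconv arrays.

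The difference of the allele effects, Treg minus Tconv, was called for 5 genes (0.0391%), all positive, and for 27 with same-numbered arrays blocked. Nedd4 differed by 1.31 ± 0.19 (adjusted p = 0.0152), Ccr4 by 1.25 ± 0.19 (adjusted p = 0.0175), Prdm1 by 1.06 ± 0.17 (adjusted p = 0.0205), Ahr by 0.91 ± 0.15 (adjusted p = 0.0192) and Rapgef5 by 0.79 ± 0.12 (adjusted p = 0.0187). For Ccr4 both cell types contributed: in Treg it was 0.49 higher in fusion and in Tconv it differed by -0.76 ± 0.15, from 6.78, 7.18, 6.93 and 7.12 in fusion Tconv, against 7.70, 7.80, 8.18 and 7.39 in ires Tconv. The Tconv difference of the other 4 lay between -0.31 and -0.05. No gene was called without B6 fusion Treg replicate 2 or B6 ires Tconv replicate 2 (highest adjusted p of the 5 without either: 0.0875). The count was 2 without either NOD ires Tconv array, 3 without B6 fusion Tconv replicate 1, 9 without NOD ires Treg replicate 2 and 18 without B6 fusion Tconv replicate 2.

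**Figure D4:**
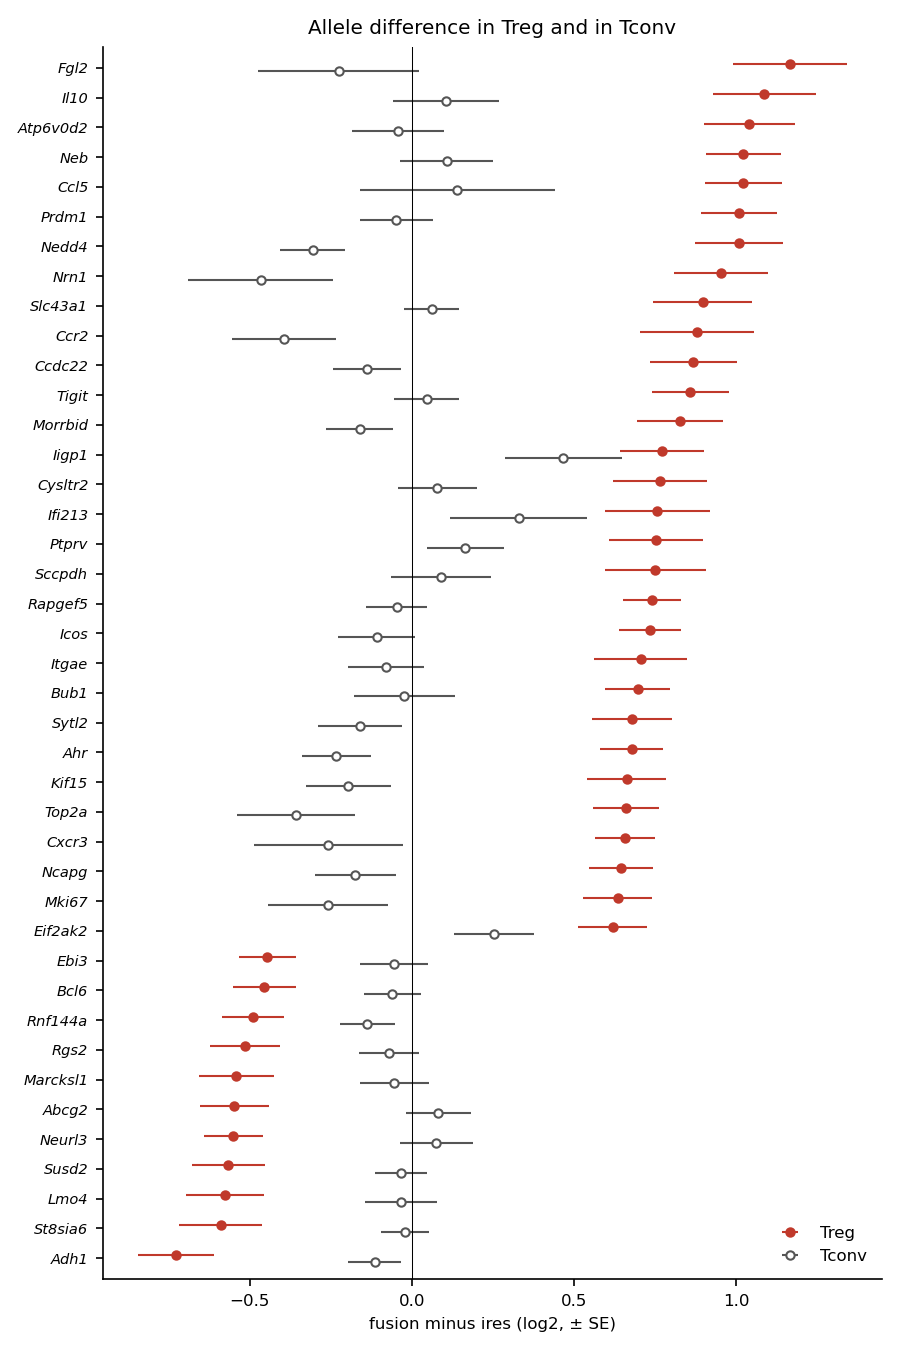
Difference between fusion and ires (x axis, log2 with SE bars, both backgrounds) in Treg (filled red) and Tconv (open grey) for 41 of the genes called in Treg (y axis): the 30 highest and the 11 lowest that have a gene name. The Treg values were used to choose the genes; the Tconv values lie on both sides of 0, and Ccr2, Nrn1 and Nedd4 lie below it.

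Within single backgrounds the effect was called more often in B6. There 75 genes were called (0.586%), 64 higher (0.5%) and 11 lower (0.086%), and in NOD 19 (0.148%), 12 higher (0.0938%) and 7 lower (0.0547%). The genes called in both were Prdm1, Neb, Ccl5 and Rapgef5, all higher in fusion, which is 5.33% of the B6 genes and 21.1% of the NOD genes. Of the 64 genes higher in B6, 52 were above 0 in NOD (81.3%, where 46.2% of all genes were), with a median of 0.33. All 12 genes higher in NOD were above 0 in B6, where 52.5% of all genes were. Of the 11 lower genes in B6, 7 were below 0 in NOD, where 53.8% of all genes were, and of the 7 lower genes in NOD, 4 were below 0 in B6, where 47.5% of all genes were. Of the 55 genes higher over both backgrounds, 48 had the larger difference in B6, among them Fgl2 (1.49 in B6, 0.84 in NOD), and 0 of the 55 were called between backgrounds. Of the 12 lower genes, 8 had the lower difference in NOD. Of all genes 57.2% had a lower difference in NOD than in B6. Leaving out B6 fusion replicate 1 gave 33 genes in B6, replicate 2 gave 22, and B6 ires replicate 2 gave 23. In NOD, leaving out NOD fusion replicate 2 gave 30.

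Igfbp4, of the naive and central list, was called lower in B6 Treg (-0.77) but differed by 0.14 in NOD. It was not called with all 16 arrays in the model (adjusted p = 0.0953) or with array weights (0.106). Nor was it called with every probe set on its own (0.0731), the mean of the probe sets (0.0513) or no filter (0.0871). The call was also lost without any 1 B6 Treg array, where its difference was between -1.02 and -0.53. The other lower genes of B6 Treg included Sema4a, a semaphorin (-0.78, adjusted p = 0.00601), and the inhibitor of DNA binding Id3 (-0.76, adjusted p = 0.0176). They also included the CD30 ligand Tnfsf8 (-1.11, adjusted p = 0.037). In NOD the differences of Sema4a, Id3 and Tnfsf8 were -0.15, -0.14 and -0.11. Without B6 ires Treg replicate 2 their adjusted p were 0.213, 0.224 and 0.464. Tnfsf8 was not called either with all 16 arrays in the model, array weights, every probe set on its own, no filter, quantile normalization or trend and robust variances (adjusted p of 0.0609 to 0.505). Leaving out either B6 fusion array also ended the 3 calls, and Id3 was also not called without B6 ires replicate 1. In NOD 6 of the 16 class I genes were called higher, where 0.0938% of all genes were. Among them were H2-Q4 (2.24), H2-T10 (1.89) and H2-Q5 (1.67). With trend and robust variances the adjusted p of these 3 were 0.916, 0.853 and 0.82. Over both backgrounds they differed by 1.22, 1.12 and 0.93 in Treg and by 1.22, 0.94 and 0.81 in Tconv, with none called. H2-Q4 read 8.16 and 10.04 on the NOD ires arrays, against 11.21 to 11.54 on the other 6 Treg arrays, so the NOD ires arrays were the low ones and differed from each other.

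The difference between the allele effects, NOD minus B6, was called for 8 genes (0.0625%), 2 positive (0.0156%) and 6 negative (0.0469%), and 0 of them are among the 67. For the largest differences 1 line stood apart from the other 3. Kcnma1, a calcium-activated potassium channel, read 10.45 and 9.55 in NOD fusion Treg, against 3.93 and 4.35 in NOD ires Treg and 4.34 to 4.64 in B6 Treg. The low values are below background, so Kcnma1 was at least 15.3-fold higher in NOD fusion than in NOD ires Treg, from the fusion mean and that level. The cathepsin E gene Ctse read 11.49 and 11.68 in B6 fusion Treg, against 8.58 and 8.19 in B6 ires Treg and 8.44 to 8.72 in NOD Treg. The same lines stood apart in Tconv, where Kcnma1 read 10.21 and 10.89 in NOD fusion and Ctse 11.96 and 11.89 in B6 fusion. The NOD minus B6 difference of the 8 genes in Treg and, with no test, in Tconv was, as fitted and no measure of size, 5.78 and 6.03 for Kcnma1. It was -3.37 and -3.55 for Ctse, -1.31 and -1.57 for Snrpe (named after its values were seen), -1.44 and -1.22 for Desi1 and -1.72 and -1.04 for Vmn2r96. The same pair of values was -2.15 and -0.53 for Cd55, a complement regulator, -1.33 and -0.24 for AI506816 and 1.19 and 0.10 for Lad1, a protein of basement membrane anchors. Lad1 lost the call without either B6 fusion Treg array or B6 ires Treg replicate 1 (highest adjusted p = 0.163), and Desi1 and Vmn2r96 without either B6 fusion Treg array (highest 0.312 and 0.324). AI506816 lost it without B6 fusion Treg replicate 2 (0.153) and with all 16 arrays in the model (0.131), as did Vmn2r96 (0.241). Leaving out B6 fusion Treg replicate 1 gave 4 such genes and replicate 2 gave 3, the NOD fusion replicates gave 14 and 31, and the NOD ires replicates 18 and 13.

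**Figure D5:**
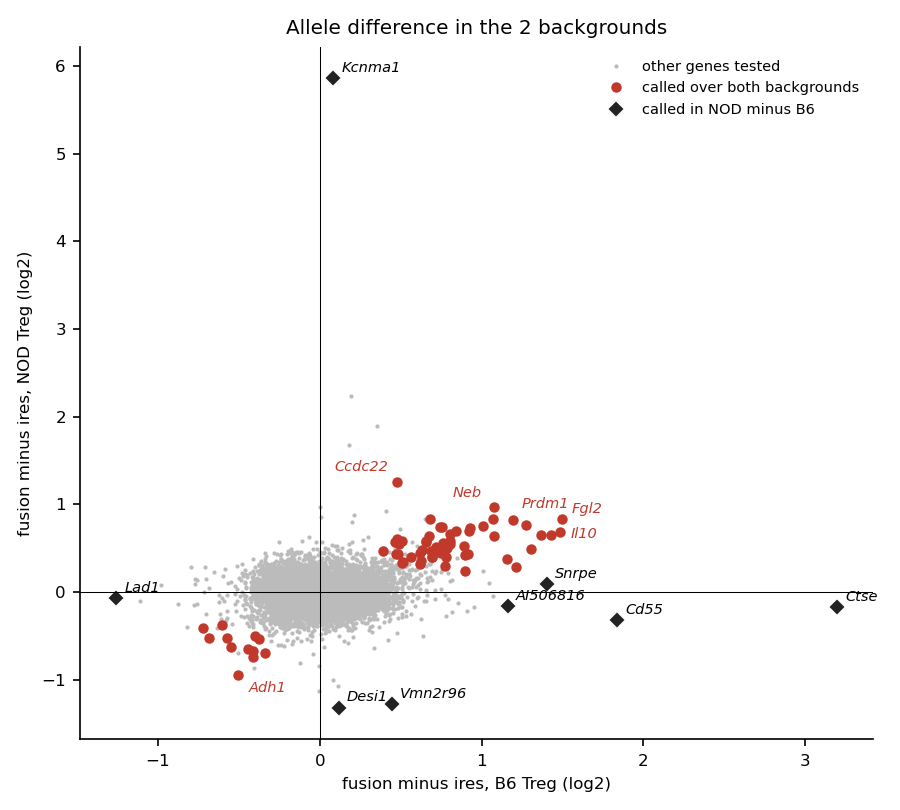
Difference between fusion and ires Treg (log2) in B6 (x axis) and in NOD (y axis) for all 12798 genes tested; red points are the 67 genes called over both backgrounds and black diamonds the 8 called in NOD minus B6. The red points lie in the upper right and lower left, and the diamonds lie near 1 of the axes, Kcnma1 at the top and Ctse at the far right.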

How the data were processed

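Affymetrix Mouse Gene 1.0 ST arrays were hybridized with RNA from sorted cells. The deposited values are probe set intensities on a linear scale, which the authors made with Affymetrix Power Tools and RMA per the submitters' processing notes, with versions not given in the sources used here. Median intensities of the Treg arrays were 90.5 to 99.0; precision is limited by how many arrays there are. The log2 of each intensity the authors deposited was used, with no pseudocount. Of 25108 probe sets 21157 carried 1 gene symbol, covering 19531 genes, and each gene was read from its brightest probe set (906 genes had several).

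The 8 Treg arrays were fitted with background and allele as terms (limma 3.58.1, R 4.3.3, moderated variances with 5 residual and 11.9 prior degrees of freedom). B6, NOD and their difference came from 1 mean per Treg group, Tconv from the 8 Tconv arrays, and Treg minus Tconv from all 16. Tests were two-sided, with Benjamini-Hochberg adjustment over 12798 genes and a threshold of 0.05. The fit was tested on simulated data. The named genes were drawn from the called genes with the 15 largest and 15 smallest log2 differences. They were also drawn from the 5 largest and 5 smallest called within B6, within NOD and for NOD minus B6. Further sources were up to 6 called and 4 uncalled members a list, and Foxp3 with 5 neighbours a side. Not every gene in these sources is named. Il2ra, Ctla4, Ikzf2, Irf4, Prdm1, Hif1a, Il10, Icos and Tigit were always named, and other names are marked or are cell markers. The members, lists and rules were chosen with earlier results of these data known. Alternatives are given in the closing section. Tables and plots used Python 3.11.15, numpy 2.4.6, pandas 2.3.3 and matplotlib 3.10.9.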

Additional observations from a re-analysis of the deposited data

Results flagged for a closer look

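These genes are listed because a test of the difference itself was called. Between backgrounds, the Treg allele effect (NOD minus B6) differed by 5.78 as fitted for Kcnma1, whose low values are below background, and by -3.37 for Ctse, -2.15 for Cd55, -1.33 for AI506816, -1.72 for Vmn2r96, -1.44 for Desi1, 1.19 for Lad1 and -1.31 for Snrpe (log2). Without B6 fusion Treg replicate 1 or 2 the count of such genes was 4 and 3, and without NOD fusion Treg replicate 2 it was 31. Between Treg and Tconv, the allele effect differed (Treg minus Tconv) by 1.31 for Nedd4, 1.25 for Ccr4, 1.06 for Prdm1, 0.91 for Ahr and 0.79 for Rapgef5. Groups of 2 arrays are too small to single out an array by its gap to the others.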

How the results depend on the processing

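Over both backgrounds 67 genes were called in Treg; 115 were called with 1 mean per Treg group in the model and 341 with array weights, and 27 to 78 without each Treg array in turn. In B6 Treg, where 75 were called, the count was 44 with all 16 arrays, 41 with array weights, 48 after quantile normalization and 22 to 51 without each array. In NOD Treg, with 19, it was 18 to 30 without each array. For NOD minus B6, with 8, it was 5 with all 16 arrays and 5 after quantile normalization, 15 after median centring, 14 with trend and robust variances, and 3 to 31 without each array. For Treg minus Tconv, with 5, it was 10 with array weights, 10 with trend and robust variances, and 0 to 18 without each array. In Tconv it was 0, 3 with all 16 arrays, and 0 without each array. Apart from the replicate block given next, the other planned settings left each count within 1.5 times; the cause of these shifts was not tested.

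Array numbers are shared between groups. Deviations of same-numbered fusion and ires arrays had r = -0.01 in B6 Treg and 0.34 in NOD Treg across genes. In Tconv r was 0.36 in B6 and -0.17 in NOD. Same-numbered Treg and Tconv arrays of a line had r = 0.40 for B6 fusion, 0.40 for B6 ires, 0.24 for NOD fusion and 0.08 for NOD ires. The labels name no shared mouse or batch, so the numbers were not taken to pair arrays. Whether they do was not tested. With a replicate block 75 genes were called over both backgrounds, 74 in B6, 22 in NOD, 9 for NOD minus B6, 0 in Tconv and 27 for Treg minus Tconv. Of 3272 recomputed values of 169 single-gene results, 2949 kept direction and call, 232 lost the call, 91 gained it and 0 turned round. Probes were not checked against strain or allele sequence. Signal near background limits Il10, Bub1 and Cysltr2, and in B6 also Rapgef5 and Adh1.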
